A study of Mus musculus with 24 samples.

Results

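The chemokines Ccl11, Ccl24, Ccl17 and Ccl22, the receptors Ccr3 and Ccr4 that they bind, and the transcription factor Gata3 were read out by their symbols from a table of 750 immune genes measured in 24 mouse tumours. All 7 were in the table, and 6 of the 7 reached the minimum level at which a gene was tested, as did 600 of the 750 genes. Ccl17 lay below that minimum. The tumours were grown under the skin of BALB/c mice from CT26, a mouse colon carcinoma line of the same strain. Before implantation the cells had been kept for 40 weeks either in the vehicle DMSO or in 0.5 uM NP1867, an inhibitor of PMS2, which is a subunit of the MutL endonuclease of DNA mismatch repair. From day 7, when tumours averaged some 50 mm3, mice received a PD-1 blocking antibody (clone RMP1-14) or its isotype control (clone 2A3), at 5 mg/kg for 4 doses. Each culture under each antibody gave 6 tumours, 4 groups in all, taken on day 19, 24 h after the last dose. The mice were immunocompetent, and all groups share the long culture and the injections of a rat antibody. Tumours were chosen for sampling because they were near the mean volume of their group, and the labels do not say how many parallel cultures each arm held, so the effect of NP1867 and differences between cultures cannot be told apart.

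CCL11 and CCL24 (eotaxins) are secreted chemokines that act through CCR3, a receptor found on eosinophils, basophils and mast cells. CCL17 and CCL22 act through CCR4, a receptor of type 2 helper T cells, regulatory T cells and skin-homing T cells. GATA3 is the transcription factor that specifies type 2 helper T cells and group 2 innate lymphoid cells, and it is also expressed in other T cells and in some epithelia. In tumours the CCL22 to CCR4 route is known for recruiting regulatory T cells, and the eotaxin to CCR3 route for recruiting eosinophils.

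Every value was a whole count multiplied by 1 factor per tumour, and is given below as the deposited log2 value, in which 1 unit is a doubling. The recovered counts summed to between 62699 and 687032 per tumour. Of the 24 tumours, 4 had fewer than 200000 counts, all of them from DMSO-cultured cells: DMSO isotype tumours 6 and 23 and DMSO anti-PD-1 tumours 11 and 37. Their median total was 0.251 of that of the other 20. Their median count was lower for each member, but the ranges could overlap: for Ccr4 12 to 25 against 11 to 29 in the others. These 4 tumours had the 4 highest scaling factors, of 1.93 to 5.46 against 0.52 to 1.56 in the others. The counts behind a value ran from 38 to 960 for Ccl11, from 10 to 250 for Ccl24, from 6 to 124 for Ccl22, and no higher than 71 for Ccr3, 69 for Gata3, 43 for Ccl17 and 29 for Ccr4. Differences between groups were tested with limma, and each p-value was adjusted by Benjamini-Hochberg over all 600 tested genes and called where the adjusted value was under 0.05. These are bulk tumours, in which fewer cells of a type and less RNA per cell cannot be told apart.

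Ccl11, an eotaxin made mainly by fibroblasts, epithelium and endothelium, was spread widely between tumours in every group. In DMSO isotype tumours its log2 value had a lowest of 4.88, a median of 6.33 and a highest of 8.30. In DMSO anti-PD-1 tumours these were 6.20, 8.02 and 8.82. The NP1867 isotype tumours ran from 6.21 through 7.49 to 9.83, and the NP1867 anti-PD-1 tumours from 7.89 through 8.22 to 10.02. The lowest group was thus DMSO isotype and the highest NP1867 anti-PD-1, with overlap between every pair of groups compared. Means were 6.62 ± 1.32 (SD, n = 6), 7.83 ± 0.93, 7.72 ± 1.39 and 8.59 ± 0.85 in the same order. With the 2 cultures averaged, Ccl11 had a log2 fold change of 1.04 (SE 0.43) for anti-PD-1 against isotype, and 11 of 12 anti-PD-1 tumours lay above the mean of their own isotype group. The adjusted p from limma was 0.068, which did not pass the threshold of 0.05. It passed in 8 of 35 alternatives, among them the fits without DMSO isotype 6 (1.21, adjusted p = 0.0353), without DMSO isotype 23 (1.18, adjusted p = 0.028), without DMSO anti-PD-1 11 (1.20, adjusted p = 0.0388) and without NP1867 isotype 47 (1.25, adjusted p = 0.0178). With Ptprc, the gene of the leukocyte antigen CD45, as a covariate the change was 0.22 (limma adjusted p = 0.556). Without the 4 tumours of low totals it was 1.67 (limma adjusted p = 0.00416), made up of 2.48 in DMSO tumours and 0.87 in NP1867 tumours.

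Ccl24, the eotaxin best known as a product of macrophages, was the member that passed a test. In DMSO isotype tumours its log2 value ran from 4.08 through a median of 4.31 to 6.45. With anti-PD-1 the DMSO tumours ran from 4.68 through 5.28 to 7.50. NP1867 isotype tumours ran from 3.68 through 4.94 to 7.12, and NP1867 anti-PD-1 tumours from 6.01 through 6.20 to 7.36. The NP1867 anti-PD-1 tumours thus lay close together, above 5 of 6 NP1867 isotype tumours, and the groups overlapped through the remaining isotype tumour. Means were 4.88 ± 1.03 (SD, n = 6), 5.76 ± 1.10, 5.14 ± 1.15 and 6.42 ± 0.52. With both cultures averaged, Ccl24 rose with anti-PD-1 by 1.08 on the log2 scale (SE 0.37, 95% interval 0.31 to 1.86, limma adjusted p = 0.0352), a fold of 2.12, and 11 of 12 anti-PD-1 tumours lay above their own isotype mean. The change was 1.28 (SE 0.53) in NP1867 tumours and 0.88 (SE 0.53) in DMSO tumours, with limma adjusted p of 0.0988 and 0.412. Without the 4 tumours of low totals the DMSO value was 1.93 (limma adjusted p = 0.0698), which is above that of NP1867 tumours, and with 1 tumour left out it ran from 0.53 to 1.20. The difference between the responses went from 0.40 (SE 0.75) to -0.65, with limma adjusted p of 0.995 and 0.996.

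The Ccl24 result sat near the threshold. It was called in 20 of 34 alternatives, in which the log2 fold change ran from 0.61 to 1.63 and the limma adjusted p reached 0.235. Centring each tumour on its median gave 0.79 (adjusted p = 0.060), quantile normalisation gave 0.62 (adjusted p = 0.109), and a fit with Ptprc as a covariate gave 0.61 (adjusted p = 0.235). Leaving out 1 tumour ended the call for 11 of the 24 tumours, with values of 0.91 to 1.07 and adjusted p of 0.0531 to 0.0666: DMSO isotype 47, 55, 59 and 64, DMSO anti-PD-1 7 and 74, NP1867 isotype 10, 49 and 57, and NP1867 anti-PD-1 30 and 78. Without the 4 tumours of low total counts the change was 1.61 (adjusted p = 0.0029), and with array weights it was 1.63. In NP1867 tumours alone, leaving out NP1867 isotype 47 gave a call (1.68, limma adjusted p = 0.0177).

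Ccr3, the receptor for both eotaxins, was low, with counts of 11 to 71. Its log2 value in DMSO isotype tumours ran from 3.16 through a median of 4.52 to 6.28. In DMSO anti-PD-1 tumours it ran from 3.79 through 5.13 to 5.27. NP1867 isotype tumours ran from 3.06 through 4.12 to 4.74, and NP1867 anti-PD-1 tumours from 3.92 through 5.53 to 6.41. In NP1867 tumours, 5 of 6 under anti-PD-1 lay above every isotype tumour, whereas the DMSO groups overlapped over most of their range. Means were 4.62 ± 1.37 (SD, n = 6), 4.78 ± 0.62, 4.00 ± 0.67 and 5.39 ± 0.82. In NP1867 tumours the log2 fold change for anti-PD-1 was 1.39 (SE 0.50, 95% interval 0.35 to 2.43), with 5 of 6 tumours above the isotype mean. The limma adjusted p was 0.0662 and the exact permutation p of this gene alone, two-sided, was 0.013. In DMSO tumours the change was 0.16 (SE 0.50). It was 0.72 without the 4 tumours of low totals, 0.75 with array weights, and from -0.13 to 0.49 with 1 tumour left out. The difference between these responses was 1.23 (SE 0.71, 95% interval -0.25 to 2.70), with a limma adjusted p of 0.995, so the responses were not shown to differ. It was 0.67 when the 4 tumours were left out.

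For Ccr3 in NP1867 tumours, 7 of 36 alternatives gave a call. Among these were the fits without the 4 tumours of low totals (1.39, adjusted p = 0.0265), without DMSO isotype 23 (1.39, adjusted p = 0.0442), without NP1867 isotype 47 (1.51, adjusted p = 0.0361) and without NP1867 anti-PD-1 48 (1.68, adjusted p = 0.0295), all from limma. The first 2 of these fits leave out DMSO tumours alone, so the Ccr3 change is that of the main fit. Only the shared estimate of the spread and the adjustment differ there. Without the 4 tumours 139 genes were called in this comparison, against 74 in the main fit. Over all alternatives the value ran from 0.78 to 1.68. With both cultures averaged the change was 0.78 (SE 0.36, limma adjusted p = 0.0956), and it passed without DMSO isotype 6 (0.94), DMSO isotype 23 (0.91) or NP1867 anti-PD-1 48 (0.92), and without the 4 tumours (1.06, limma adjusted p = 0.0164).

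Ccl22, a CCR4 ligand made by dendritic cells and macrophages, had higher means in NP1867 than in DMSO tumours under both antibodies. Its log2 value in DMSO isotype tumours ran from 4.52 through a median of 4.65 to 6.70. In NP1867 isotype tumours it ran from 5.09 through 5.67 to 6.23. DMSO anti-PD-1 tumours ran from 4.71 through 5.33 to 5.79, and NP1867 anti-PD-1 tumours from 5.36 through 6.25 to 6.97. Under each antibody every NP1867 tumour lay above the mean of the DMSO tumours, 12 of 12 in all, and the groups overlapped through a few tumours, among them DMSO isotype tumour 23 at 6.70. Means were 5.04 ± 0.84 (SD, n = 6) and 5.27 ± 0.37 in DMSO tumours under isotype and anti-PD-1, and 5.63 ± 0.42 and 6.24 ± 0.55 in NP1867 tumours. Averaged over both antibodies, Ccl22 had a log2 fold change of 0.78 for NP1867 against DMSO (SE 0.23, 95% interval 0.30 to 1.25), a fold of 1.71, with a limma adjusted p of 0.0741. Under anti-PD-1 the change was 0.96 (SE 0.32, limma adjusted p = 0.248, exact permutation p = 0.00649) and under isotype 0.59 (SE 0.32, limma adjusted p = 0.638).

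Ccl22 had no call in the main fit. For averaged NP1867 it was called in 6 of 34 alternatives, 4 of them other settings and 2 with 1 tumour left out. For anti-PD-1 with the cultures averaged the change was 0.42 (SE 0.23, limma adjusted p = 0.149). It was 0.59 without DMSO isotype 23 (limma adjusted p = 0.0116) and 0.55 without the 4 tumours of low totals (limma adjusted p = 0.0317). For averaged NP1867, the change without DMSO isotype 23 was 0.94 (limma adjusted p = 0.00294), and without NP1867 anti-PD-1 67 it was 0.86 (limma adjusted p = 0.0391). Without the 4 tumours of low total counts it was 0.96 (limma adjusted p = 0.0181). After centring each tumour on its median it was 0.58 (limma adjusted p = 0.212).

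Ccl17, the other CCR4 ligand and likewise a dendritic cell product, was measured by only 5 to 43 counts. Its log2 value ran from 3.35 through a median of 3.98 to 5.77 in DMSO isotype tumours and from 3.93 through 4.20 to 4.54 in DMSO anti-PD-1 tumours. In NP1867 isotype tumours it ran from 2.96 through 3.54 to 5.20, and in NP1867 anti-PD-1 tumours from 3.81 through 4.29 to 5.31. All groups overlapped. In NP1867 tumours, 5 of 6 isotype tumours lay below the lowest anti-PD-1 tumour, and these groups overlapped through isotype tumour 57 alone. That tumour had the highest NP1867 isotype value, well apart from the other 5. Means were 4.18 ± 0.91 (SD, n = 6), 4.20 ± 0.24, 3.69 ± 0.80 and 4.40 ± 0.57 in the order given. In NP1867 tumours the log2 fold change for anti-PD-1 was 0.71 (SE 0.39), with 6 of 6 tumours above the isotype mean. The exact permutation p was 0.102, and the limma adjusted p was 0.186 in a fit of all 750 genes. In DMSO tumours the change was 0.02 (SE 0.39, 95% interval -0.79 to 0.83), and 0.40 without the 4 tumours of low totals. For NP1867 under isotype it was -0.49 (SE 0.39, exact permutation p = 0.34) with all tumours and 0.02 without those 4.

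Ccr4, the receptor of both, had values of 3.62 through a median of 4.18 to 6.15 in DMSO isotype tumours and of 3.24 through 4.63 to 6.00 in DMSO anti-PD-1 tumours. In NP1867 tumours they were 2.93 through 4.22 to 4.91 under isotype and 3.15 through 4.71 to 5.21 under anti-PD-1. No group stood apart, with means of 4.60 ± 1.03 (SD, n = 6), 4.69 ± 0.92, 4.05 ± 0.68 and 4.44 ± 0.80. The log2 fold change of Ccr4 lay between -0.55 and 0.39 in the 7 comparisons, and none had an unadjusted limma p under 0.05. Its counts varied only 2.64-fold, from 11 to 29, while total counts varied 10.96-fold, and the 4 tumours with the highest Ccr4 values were exactly the 4 with low totals. The part of the scaling in the Ccr4 values was not tested: the probes' background was not analysed here. Without those 4 tumours the averaged change for NP1867 against DMSO went from -0.40 to 0.16.

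Gata3, the type 2 lineage factor, had no call in any comparison. Its log2 value ran from 4.19 through a median of 4.46 to 5.91 in DMSO isotype tumours and from 4.35 through 4.93 to 5.68 in DMSO anti-PD-1 tumours. In NP1867 isotype tumours it ran from 4.59 through 5.06 to 5.47, and in NP1867 anti-PD-1 tumours from 5.04 through 5.30 to 6.02. All groups overlapped, and their means were 4.71 ± 0.66 (SD, n = 6), 4.99 ± 0.45, 5.07 ± 0.33 and 5.45 ± 0.43. Averaged over both antibodies the log2 fold change for NP1867 was 0.41 (SE 0.20, 95% interval -0.01 to 0.83, limma adjusted p = 0.257), with 11 of 12 tumours above the DMSO mean. For anti-PD-1 averaged over both cultures it was 0.33 (SE 0.20, limma adjusted p = 0.191). Without DMSO isotype 23 this was 0.45 (limma adjusted p = 0.0324) and without the 4 tumours 0.40 (limma adjusted p = 0.0454), and without the 4 tumours of low totals averaged NP1867 was 0.72 (limma adjusted p = 0.0237).

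**Figure D1:**
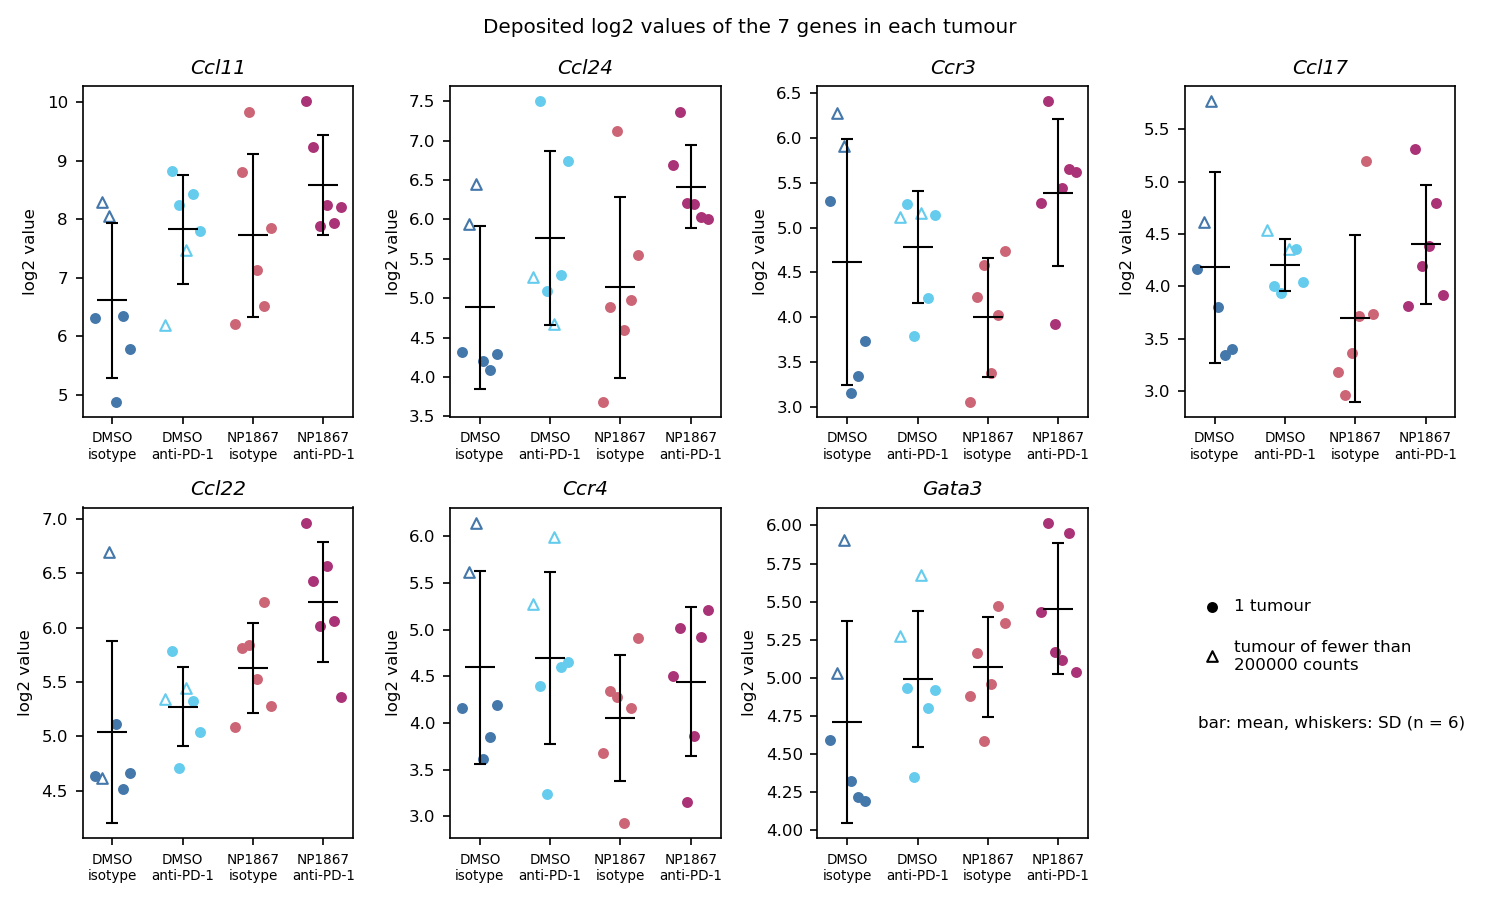
Deposited log2 values of the 7 genes in the 24 tumours, by group. Each point is 1 tumour, open triangles mark the 4 tumours under 200000 counts, and bars give the mean and SD of 6 tumours. The triangles are the 4 highest points for Ccr4, and the NP1867 anti-PD-1 points for Ccl24 all lie at 6.01 or above.

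Set beside the panel, the counts of calls were as follows. Anti-PD-1 against isotype with the cultures averaged called 29.3% of the 600 tested genes (162 higher and 14 lower), and 1 of the 6 tested members, Ccl24, and voom on the recovered counts called 228 genes. In NP1867 tumours it called 12.3% of genes (72 higher and 2 lower, with 96 called by voom) and 0 of 6 members, with 2 members at an unadjusted limma p under 0.05 and 211 genes so. Exact permutation tests called 0 genes there and in the other 3 comparisons of single groups. The limited number of splits of 6 against 6 sets a lowest possible p for each gene. Adjusted over 600 genes, that lowest p falls under 0.05 only if many genes reach it together. The absence of permutation calls therefore cannot be set against the calls of limma and voom. In DMSO tumours limma called 0% of genes and 0 of 6 members, and 85 genes but no member had an unadjusted p under 0.05, while voom called 0. NP1867 against DMSO called 2% of genes with the antibodies averaged (7 higher, 5 lower), 0.167% under isotype and 0% under anti-PD-1, and 0 of 6 members in each. At an unadjusted limma p under 0.05 these held 2, 0 and 1 members and 121, 46 and 69 genes, and voom called 16, 1 and 0 genes. For the difference between the responses limma called 0% of genes and 0 of 6 members, 11 genes and no member had an unadjusted p under 0.05, and voom called 0 genes. The comparisons share groups, so their counts are not independent.

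The median tested gene lay above 0 in these comparisons. For averaged anti-PD-1 the median log2 fold change was 0.60 over the 6 tested members and 0.33 over all tested genes. In NP1867 tumours it was 0.74 against 0.43, and in DMSO tumours 0.26 against 0.23. For averaged NP1867 it was 0.43 against 0.18. Centring each tumour on its median moved the all-gene median for averaged anti-PD-1 to 0.04 and changed the split of calls from 162 higher and 14 lower to 54 higher and 95 lower. Quantile normalisation gave 64 higher and 100 lower. In NP1867 tumours the 72 higher and 2 lower became 38 and 40 after centring and 23 and 32 under quantile normalisation, and for averaged NP1867 the 7 and 5 became 5 and 10, and 5 and 11. Under quantile normalisation Ccl22, Ccr4 and Gata3 had negative averaged anti-PD-1 values, of -0.090, -0.24 and -0.12. Without the 4 tumours of low total counts, 5 of 6 members were called higher in averaged anti-PD-1: Ccl11, Ccl24, Ccr3, Ccl22 and Gata3, with the values given above. Beside them 318 of the 600 genes were called, counted in either direction.

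**Figure D2:**
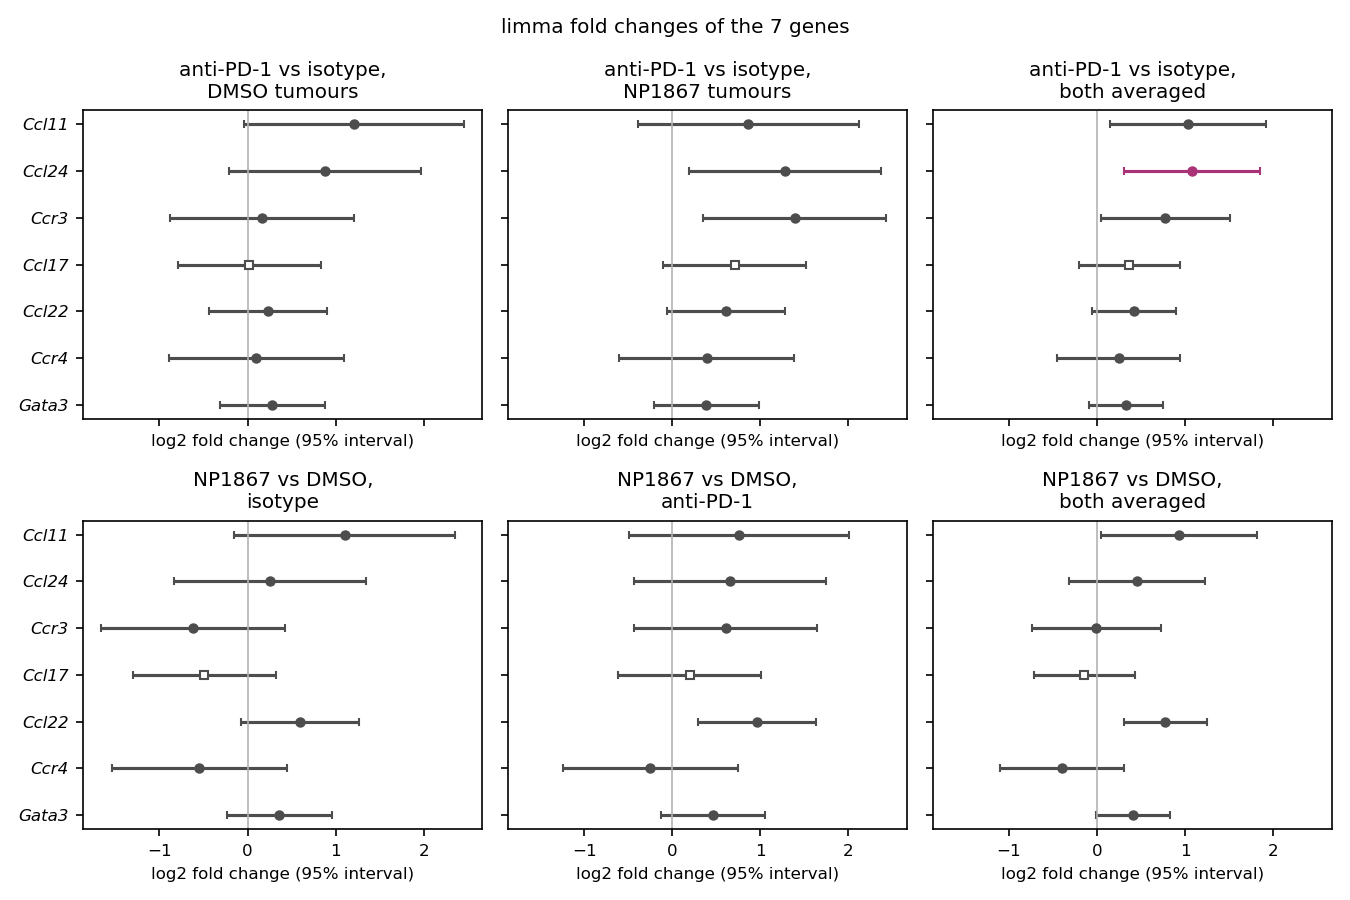
Log2 fold changes of the 7 genes with 95% intervals from limma in 6 comparisons. The interval of Ccl24 for anti-PD-1 averaged over the cultures runs from 0.31 to 1.86 and is coloured because it passed the threshold. Ccl17 is drawn as an open square because it comes from the fit of all 750 genes.

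**Figure D3:**
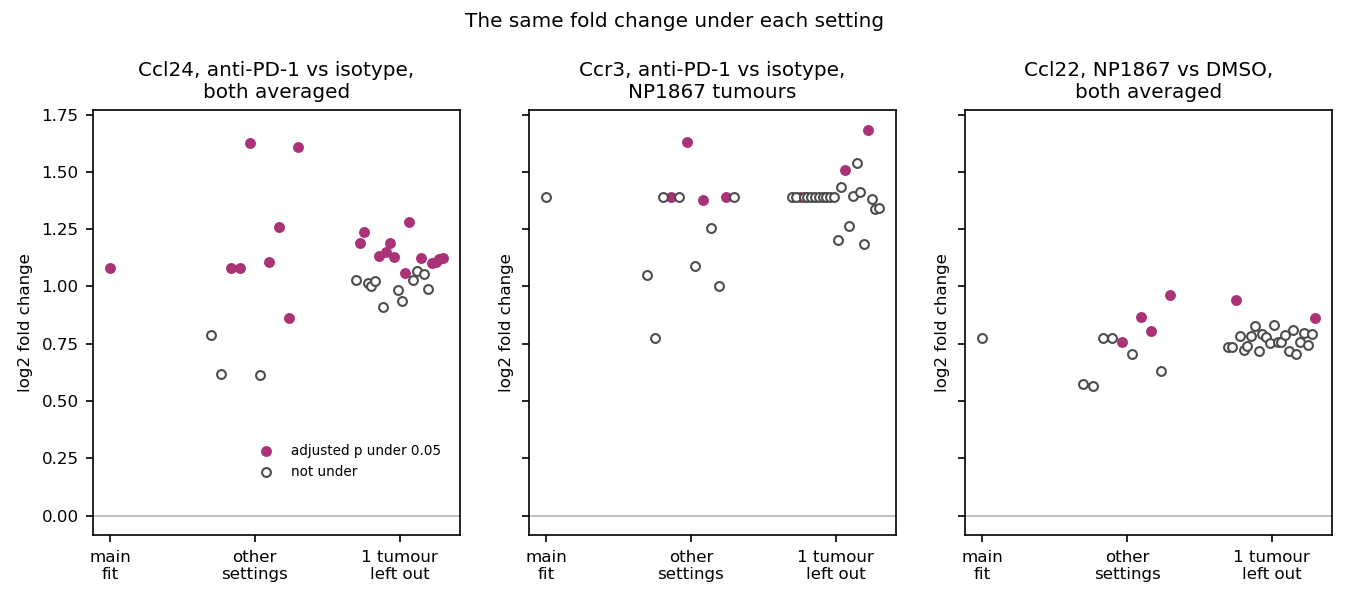
Log2 fold changes of Ccl24 (averaged anti-PD-1), Ccr3 (anti-PD-1 in NP1867 tumours) and Ccl22 (averaged NP1867) in the main fit, under the other settings and with 1 tumour left out. Filled points have an adjusted p under 0.05 and open points do not. All 3 stay above 0 in every setting drawn, and Ccl24 runs from 0.61 to 1.63.

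Across the 24 tumours, 21 pairs of the 7 genes were compared on log2 values less each tumour's median over tested genes, with p-values adjusted over the 21 pairs. Ccl17 and Gata3 had a Pearson r of 0.72 (permutation test, adjusted p = 0.00126) and a Spearman rho of 0.58 (permutation test, adjusted p = 0.0201). Within the 4 groups their r was 0.98, 0.84, 0.82 and 0.86. Without the 4 tumours of low totals r was 0.66 and rho was 0.36. Ccr3 and Ccr4 had an r of 0.70 (permutation test, adjusted p = 0.00136) and a rho of 0.72 (permutation test, adjusted p = 0.00252), with r of 0.79, 0.80, 0.79 and 0.85 within the groups and 0.57 without those tumours. Their counts in the tumours of low totals were 0.711 (Ccr3) and 0.786 (Ccr4) of those in the others, by medians, against 0.299 for the median tested gene, and the part of this in the correlation was not tested. Ccl11 and Ccl24, the eotaxins, had an r of 0.66 (permutation test, adjusted p = 0.00336), a rho of 0.66 (permutation test, adjusted p = 0.00672) and an r of 0.68 without those tumours. Within groups it was 0.83, 0.31, 0.71 and 0.45.

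Of the ligands and their receptors, Ccl24 and Ccr3 had an r of 0.54 (permutation test, adjusted p = 0.022) and a rho of 0.53 (permutation test, adjusted p = 0.0239), and 0.60 without the tumours of low totals. Ccl11 and Ccr3 had an r of 0.29, with signs that differed between groups. Ccl22 and Ccr4 had an r of 0.07, and Ccl17 and Ccr4 an r of 0.54 that was 0.29 without those tumours. Ccr3 and Ccl17, the ligand of the other receptor, had an r of 0.52 (permutation test, adjusted p = 0.024), and 0.37 without those tumours. Ccr4 and Gata3 had an r of 0.59 (permutation test, adjusted p = 0.0105), and 0.42 without them. Over the 24 tumours, an r of this size was thus not particular to a ligand and its receptor. Ccl22 and Gata3 had an r of 0.62 (permutation test, adjusted p = 0.0074) and a rho of 0.59 (permutation test, adjusted p = 0.0201). A further exclusion left out the 2 tumours farthest from the median of the first gene of the pair. It gave 0.58 for Ccl17 and Gata3, 0.68 for Ccr3 and Ccr4 and 0.62 for Ccl11 and Ccl24. For Ccl24 and Ccr3 it gave 0.49, and for Ccl22 and Gata3 0.46. The 2 CCR4 ligands, Ccl17 and Ccl22, had an r of 0.41 (permutation test, adjusted p = 0.090) that was 0.02 on that exclusion. The 2 tumours were chosen by Ccl17 alone, which narrows its spread, so this does not settle what the pooled value rests on. On deviations from the group means r was 0.62. Within the 4 groups the r of these ligands was 0.78, 0.60, 0.86 and 0.04, and it was 0.37 without the tumours of low totals.

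**Figure D4:**
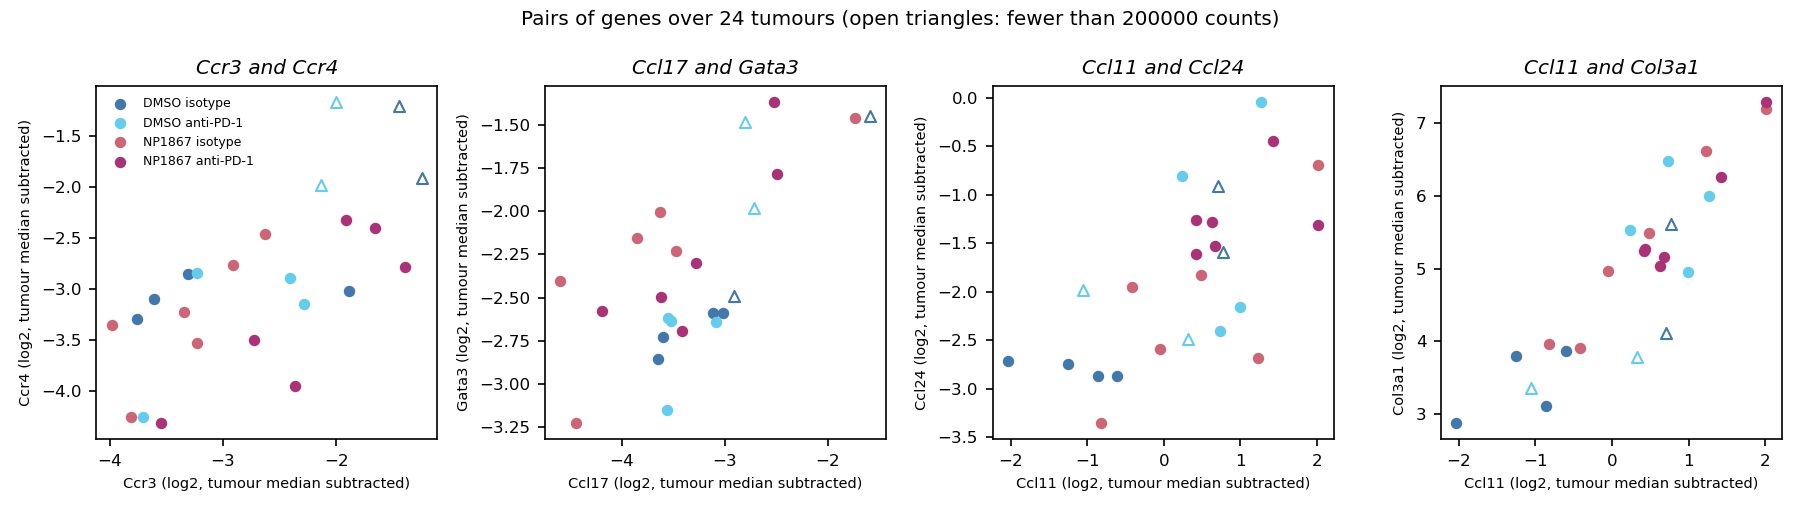
Log2 values less the tumour's median for 4 pairs: Ccr3 with Ccr4, Ccl17 with Gata3, Ccl11 with Ccl24, and Ccl11 with Col3a1. Each point is 1 of 24 tumours. The last pair is the tightest drawn, with an r of 0.89.

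The tested genes most like each member over the 24 tumours, by Pearson r on the same scale and as a description, were these. Ccl11 went with Cxcl12 (r = 0.93), Col3a1 (0.89) and Col1a1 (0.89), a stromal chemokine and 2 fibrillar collagens. Ccl24 went with Ccl6 (0.82), C3 (0.78) and C4b (0.78), a myeloid chemokine and 2 complement components. Ccl22 went with Cd83 (0.80), a marker of mature dendritic cells, Il2ra (0.78) and Arg2 (0.78). Ccr4 went with Tnfsf4 (0.84), Cd247 (0.83) and Cd40lg (0.80), the second being the T-cell receptor zeta chain, and without the tumours of low totals these were 0.71, 0.61 and 0.61. Ccr3 went with Ms4a1 (0.83) and Klrc2 (0.81), genes of B cells and natural killer cells. Ccl17 went with Ecsit (0.80), Cr2 (0.79) and Il11 (0.78). Gata3 went with Cdh1 (0.84), the epithelial cadherin, and with Slc7a11 (0.76) and Cd40lg (0.76), which were 0.78, 0.66 and 0.65 without those tumours.

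The promoters of 4 members that went together in pairs are printed to set beside the 2 pairs of highest pooled r: Ccl17 with Gata3, and Ccr3 with Ccr4. Each is 300 bases from RefSeq on GRCm38.p6, from 250 before the gene's start to 50 after it, 5' to 3' on the gene's strand. They lie at chr9:124021721-124022020 (Ccr3, plus strand), chr9:114496495-114496794 (Ccr4, minus strand), chr8:94810203-94810502 (Ccl17, plus strand) and chr2:9878551-9878850 (Gata3, minus strand). Capitals mark matches, on either strand, to the motifs named after the sequences.
Ccr3: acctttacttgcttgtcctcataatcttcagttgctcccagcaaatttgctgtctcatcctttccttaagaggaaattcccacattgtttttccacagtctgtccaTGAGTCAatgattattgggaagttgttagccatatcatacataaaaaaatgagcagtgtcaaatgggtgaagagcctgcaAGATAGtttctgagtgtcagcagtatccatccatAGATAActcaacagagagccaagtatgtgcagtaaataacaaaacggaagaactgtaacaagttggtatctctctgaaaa
Ccr4: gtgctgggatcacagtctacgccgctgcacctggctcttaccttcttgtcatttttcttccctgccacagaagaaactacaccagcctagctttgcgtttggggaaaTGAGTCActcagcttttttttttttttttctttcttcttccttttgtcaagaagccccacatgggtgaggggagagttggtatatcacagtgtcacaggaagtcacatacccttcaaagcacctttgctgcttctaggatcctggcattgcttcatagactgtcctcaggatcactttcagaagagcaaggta
Ccl17: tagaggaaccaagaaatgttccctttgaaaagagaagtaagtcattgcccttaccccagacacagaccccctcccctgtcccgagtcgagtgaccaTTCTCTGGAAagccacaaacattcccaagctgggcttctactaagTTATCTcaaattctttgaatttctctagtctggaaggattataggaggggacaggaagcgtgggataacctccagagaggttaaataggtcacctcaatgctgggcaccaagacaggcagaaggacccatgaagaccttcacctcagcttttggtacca
Gata3: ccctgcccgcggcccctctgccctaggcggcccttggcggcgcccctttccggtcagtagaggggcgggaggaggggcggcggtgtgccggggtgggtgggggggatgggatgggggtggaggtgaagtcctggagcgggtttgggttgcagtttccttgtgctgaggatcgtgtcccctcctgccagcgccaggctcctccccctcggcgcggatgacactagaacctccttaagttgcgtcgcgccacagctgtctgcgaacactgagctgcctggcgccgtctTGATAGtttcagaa
The AP-1 motif, TGAGTCA, was searched after the sequences had been read. Its first base is at -144 from the start of Ccr3 and at -143 from that of Ccr4, and 5.20% of 32851 promoters hold it. The GATA motif was searched in 4 spellings. The spelling AGATAA was found in Ccr3 and on the minus strand in Ccl17 (11.2% of promoters). The spelling AGATAG was found in Ccr3 (8.95%), and the spelling TGATAG in Gata3 (7.29%). The STAT6 motif, of the factor that signals for interleukin 4 and interleukin 13, was found in Ccl17, with its first base at -154 (6.95%). The spelling TGATAA (9.05%) was found in none of these, and none of the motifs was found in the window of Ccl22. None of the matches overlapped another. Ccl22 and Ccl17 are near neighbours on chromosome 8, with Cx3cl1 the only other protein-coding gene between them.

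The cytokines of the type 2 route were low. Of 16 rows of cytokines, receptors and signalling genes in the table, 7 reached the minimum, and limma called 0 of 7 in any of the 7 comparisons. Il4, the cytokine that drives type 2 helper T cells, was counted 1 to 18 times a tumour and Il13 8 to 34 times, and Il5, Il9, Il25, Il5ra and Il17rb were below the minimum as well. The tested genes closest to the threshold for averaged anti-PD-1 were the receptor Il4ra (log2 fold change 0.43, SE 0.17, limma adjusted p = 0.0641) and the factor Maf (0.52, SE 0.21, limma adjusted p = 0.0641). Stat6 was at 0.01 (SE 0.10). Their median was 0.36 against 0.33 over all tested genes.

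The counts of genes that rose in the lists below are to be read against the 29.3% of all tested genes called for averaged anti-PD-1. That share counts either direction, 162 higher and 14 lower, and the split turned with centring. Among other chemokines that bind CCR3, CCR4 or CCR8, 2 of 4 tested rose with averaged anti-PD-1, Ccl5 by 0.97 (limma adjusted p = 0.0168) and Ccl8 by 0.80 (limma adjusted p = 0.0408). Of the cells known for carrying CCR3, 3 of 5 tested mast cell and basophil genes rose: the tryptase Tpsab1 by 1.16 (limma adjusted p = 0.00307), the chymase Cma1 by 1.04 (limma adjusted p = 0.00762) and the IgE receptor chain Fcer1a by 0.68 (limma adjusted p = 0.0273). Tpsab1 and Cma1 also rose within NP1867 tumours, by 1.44 and 1.11. The eosinophil gene Prg2 was counted 1 to 20 times and was not tested. Summed over the list, the level in linear units ran from 200 to 966 in DMSO isotype, 539 to 832 in DMSO anti-PD-1, 257 to 612 in NP1867 isotype and 451 to 1237 in NP1867 anti-PD-1 tumours. The part of these cells in the Ccl24 and Ccr3 values was not tested.

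Of dendritic cell genes, 4 of 5 tested rose with averaged anti-PD-1 (Ccr7, Cd40, Irf4 and Xcr1, by 0.60 to 0.90), and their summed level ran from 156 to 720 in DMSO isotype and from 335 to 687 in NP1867 anti-PD-1 tumours. Of T-cell genes, 6 of 8 rose. Of genes listed for regulatory T cells, which carry CCR4, 4 of 6 did: Icos, Ctla4, Il2ra and Tnfrsf4. Foxp3 was not called for averaged anti-PD-1 (0.58, SE 0.29, limma adjusted p = 0.113), nor was Ikzf2 (0.41, limma adjusted p = 0.0854). Il2ra, the interleukin 2 receptor alpha chain, also rose with averaged NP1867 (1.11, limma adjusted p = 0.00852), the comparison in which Ccl22 was at 0.78. Foxp3 was at -0.08 there (SE 0.29). Of fibroblast genes, 2 of 7 rose with anti-PD-1, Thy1 (0.68) and Fap (0.93), while Col1a1 and Col3a1, closest to Ccl11, were at 1.02 and 1.03 with limma adjusted p of 0.113 for each. Of Th1 genes 7 of 11 rose, of endothelial genes 1 of 7 and of epithelial genes 0 of 3. Of macrophage genes 1 of 6 rose (Cd68, 0.58) and of alternatively activated macrophage genes 1 of 6 (Chil3, 0.91). The latter list ran down to -0.45 (Mrc1, SE 0.21, limma adjusted p = 0.0979), with a median of 0.41 against 0.33 over all tested genes. Ptprc was at 0.43 (SE 0.20, limma adjusted p = 0.0986). The part of any of these cells in the members' values was not tested. Of tissues that could be carried along, the skin, skeletal muscle and erythrocyte lists had 0 genes in the table.

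Several tumours were high or low for most members. NP1867 anti-PD-1 tumour 30 was among the 6 highest of 24 for 7 of 7 members, and DMSO isotype tumour 59 among the 6 lowest for 7 of 7. DMSO isotype tumour 23, of low total counts, was among the 6 highest for 6 of 7. The panel moved with the first 2: the median log2 value of all tested genes was 7.80 in tumour 30, rank 4 of 24 from the top, and 6.95 in tumour 59, rank 22, while tumour 23 had rank 14 at 7.36.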

How the data were processed

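RNA from 3 sections of 10 um per formalin-fixed tumour, 100 ng each, was hybridised to the NanoString mouse PanCancer Immune panel, per the labels' protocols. The deposited table gives log2 values for 750 genes in 24 tumours. Its normalisation steps are not given in the sources used here. Each value equalled a whole count times 1 factor per tumour (tolerance 0.05, 100% of values), so counts and totals were recovered. The 95% intervals are limma confidence intervals of the log2 fold change, reckoned from the spread between tumours. Replicates are tumours, and the labels give no batch. The main test was limma 3.58.1 in R 4.3.3, with 4 group means over all 24 tumours and a mean-variance trend. Benjamini-Hochberg, at 0.05, ran over the 600 genes whose mean log2 value was at least log2 of 20. Exact permutation tests of single genes ran over the 924 splits of 6 against 6. The fit was tested on simulated data. Alternatives were centring, quantile normalisation, filters, an added pseudocount of 10, group-only fits, array weights, covariates, voom on recovered counts, 4 low-total tumours left out, and each tumour left out. Named genes were the 7 members, for each member the 3 tested genes of highest Pearson r (1 gene is not reported here), and of each context list up to 4 that passed the threshold, otherwise up to 2 of lowest p. The members, gene lists and tests were chosen with earlier results of these data known. Promoters came from RefSeq (GRCm38.p6), found for 5 of 7 members.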

Additional observations from a re-analysis of the deposited data

Results flagged for a closer look

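Of 28 groups of 6 values (7 genes in 4 groups), 2 held a tumour far from the other 5. Chance alone gives about 1 such group in 20. Ccl17 in NP1867 isotype tumour 57 was at 5.20 on the log2 scale, with the next at 3.74. Ccl22 in DMSO isotype tumour 23 was at 6.70, with the next at 5.11; tumour 23 is 1 of the 4 with low total counts.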

How the results depend on the processing

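No paired analysis was possible because the groups compared share fewer than 2 tumour numbers. Over 37 alternatives, 13 settings and 24 fits with 1 tumour left out, the fold changes of the 6 tested members kept their direction and side of the threshold in 1368 cases, passed the threshold newly in 44, lost it in 14 and changed sign in 57. Those of Ccl17 changed sign in 12 of 196 cases. All 14 losses were of Ccl24 for averaged anti-PD-1, and no called value changed sign.
The number of the 6 tested members called for averaged anti-PD-1 was 1 in the main fit. It was 0 after centring, quantile normalisation, a filter at a log2 mean of log2 of 50 (which left Ccl24 untested) or with Ptprc as a covariate. It was 2 with voom on recovered counts, 3 with the log2 scaling factor as a covariate and 5 with array weights. Without the 4 tumours of fewer than 200000 counts it was 5, and with 1 tumour left out 0 to 5. For the fits with 1 tumour left out, the count over all genes is not given here. Their member counts and single calls, here and elsewhere, are thus not set beside a share of the panel. Over all genes, in either direction, the main fit called 176. Centring called 149, quantile normalisation 164, the filter 155 of 466 and Ptprc as a covariate 52. Voom called 228, the scaling factor 238, array weights 404 and the fit without the 4 tumours 318. For anti-PD-1 in NP1867 tumours the number of members went from 0 to 1 in a fit of only those groups, with the scaling factor or without the 4 tumours. It went to 4 with array weights, and to 0 to 2 with 1 tumour left out. The genes called there were 74 in the main fit and 75, 122, 139 and 267 under these 4 settings in turn. In DMSO tumours the members called went from 0 to 4 with array weights, and the genes called from 0 to 273. For averaged NP1867 the members called went from 0 to 2 with array weights, the scaling factor or without the 4 tumours. They went to 1 with voom, and to 0 to 1 with 1 tumour left out. The genes called were 12 in the main fit and 70, 27, 11 and 16 under these 4 settings in turn. Leaving out the 4 tumours, all from DMSO cultures, kept the fold changes for anti-PD-1 in NP1867 tumours as they were. There only the shared estimate of the spread and the adjustment changed. The cause of the other changes was not tested.

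Changes of sign were as follows, as log2 fold changes. For anti-PD-1 in DMSO tumours, centring gave -0.085 for Ccr3, -0.013 for Ccl22 and -0.15 for Ccr4, quantile normalisation gave -0.21, -0.17 and -0.22 for these and -0.023 for Gata3, and Ptprc as a covariate gave -0.012 for Ccr3. In NP1867 tumours, quantile normalisation gave -0.014 for Ccl22, -0.26 for Ccr4 and -0.21 for Gata3, and Ptprc as a covariate gave -0.18 for Ccl11. For averaged anti-PD-1, quantile normalisation gave -0.090 for Ccl22, -0.24 for Ccr4 and -0.12 for Gata3, and centring gave -0.050 for Ccr4. For the difference between the responses, quantile normalisation gave -0.038 for Ccr4 and -0.18 for Gata3, array weights gave -0.037 for Ccl24 and -0.29 for Gata3, and leaving out the 4 tumours gave -0.65 for Ccl24 and -0.035 for Gata3. For NP1867 under isotype, leaving out the 4 tumours gave 0.12 for Ccr3 and 0.10 for Ccr4, under anti-PD-1 0.22 for Ccr4, and averaged 0.45 for Ccr3 and 0.16 for Ccr4. Averaged NP1867 for Ccr3 was also 0.085 with array weights, 0.27 with the scaling factor and 0.022 with voom. With 1 tumour left out, Ccr3 ran from -0.13 to 0.49 and Ccr4 from -0.16 to 0.41 for anti-PD-1 in DMSO tumours. Likewise Ccl24 ran from -0.14 to 0.57 for NP1867 under isotype, Ccr4 from -0.54 to 0.0095 for NP1867 under anti-PD-1 and Ccr3 from -0.15 to 0.16 for averaged NP1867. For the difference between the responses, Ccl11 ran from -0.68 to 0.076, Ccr4 from -0.015 to 0.56 and Gata3 from -0.14 to 0.24. Ccl17 went from 0.02 to -0.23 after centring and -0.034 with 10 added for anti-PD-1 in DMSO tumours, where leaving out 1 tumour gave -0.15 to 0.34. For NP1867 it was 0.016 under isotype and 0.17 averaged without the 4 tumours, -0.049 under anti-PD-1 after centring, and -0.30 to 0.013 averaged with 1 tumour left out.

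Low counts limit the receptors, Ccl17 and Gata3, and the 4 tumours of low totals lie in the DMSO groups alone. Ccl17 was tested in the fit of all 750 genes and by exact permutation, and no other limma fit tested it.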
